A study of Mus musculus with 10 samples.

Results

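The inhibitors of cyclin-dependent kinases, the D cyclins and the core of the p53 circuit were followed in mouse colon tumors that either kept or lost Wntless (Wls), the transmembrane protein that cells need to secrete Wnt ligands. The 10 genes were Ccnd1, Ccnd2 and Ccnd3, the Cip/Kip inhibitors Cdkn1a, Cdkn1b and Cdkn1c, the INK4 inhibitors Cdkn2a and Cdkn2b, and Mdm2 and Trp53. They were taken by name from the 16875 gene names of the deposited expression table, and all 10 were found, with none sharing its values with another name. All 10 were also among the 16757 names with a mean of at least 0.5 FPKM (a fragment count divided by transcript length and by library size) that entered the test.

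The data were whole-tumor RNA-seq values from 10 macrodissected colon tumors raised in mice of C57Bl6 background with azoxymethane (AOM), a colon carcinogen, followed by 3 cycles of 2% dextran sulfate sodium (DSS), which inflames the colon. All animals started treatment at 6 to 10 weeks of age and gave tumors 120 days after AOM. The 5 control tumors were titled Wls WT. The paper names Wls flox/flox as the control genotype of its tumor organoids and does not state the alleles of the sequenced controls. The 5 Villin-Wls cKO tumors carried floxed Wls and Villin-Cre ERT2, a tamoxifen-activated Cre under a promoter of intestinal epithelium. Their hosts received 5 tamoxifen injections starting 30 days before collection, whereas control animals were described as not given tamoxifen unless noted. Deletion was therefore aimed at epithelial cells, and stroma and immune cells of the tumor pieces kept Wls. The number of mice behind the tumors was not stated, so the p-values measure the spread between tumors.

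The labels held for the targeted gene. Wls was at 61.3 to 79.9 FPKM in the control tumors and at 2.03 to 11.7 FPKM in the Villin-Wls cKO tumors. The groups also differed in sex markers, since Xist, the RNA of the inactive X chromosome, was at 0.0366 to 0.420 FPKM in control and 439 to 701 FPKM in Villin-Wls cKO tumors, and the Y-linked Eif2s3y was at 30.4 to 46.6 against at most 0.138 FPKM. Genotype, sex and tamoxifen thus cannot be told apart in any difference given here. Villin-Wls cKO tumors 2 and 3 stood apart by the basal keratin Krt5, at 469.5 and 669 FPKM against at most 0.315 FPKM in each of the other 8 tumors, and by Krt14, at 262 and 243 FPKM against at most 113 FPKM. By the limma test used below, which called 10.9% of all genes, 1 of 8 epithelial markers (Krt20, 0.91, adjusted p = 0.0156), 3 of 7 goblet cell markers and 4 of 6 T cell markers rose. In the squamous, fibroblast, smooth muscle, endothelial, B cell, macrophage and neutrophil marker lists 0 genes passed. Most point estimates were above 0 in each of those lists except that of macrophages, where 5 of 6 were below 0. The epithelial markers summed to 5499 to 7763 FPKM in control and 6604 to 8725 FPKM in Villin-Wls cKO tumors. The goblet cell markers summed to 2677 to 12221 against 23162 to 28613 FPKM, and the T cell markers to 4.04 to 9.16 against 9.38 to 20.9 FPKM. Krt19 (means 3027 and 3504 FPKM), which shares its values with Krt13 and Krt17, was the largest part of the epithelial sum. Spink4 (means 6063 and 21078 FPKM) was the largest part of the goblet cell sum. The goblet cell marker Clca1 and the T cell marker Cd4 had point estimates below 0 (-0.24 and -0.049), and the other markers of these 2 lists above 0. The part of these shifts in the values below was not tested. The table gives no read counts, so the depth behind each FPKM value is unknown.

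Entry into the cell cycle is governed by D cyclins, which bind and activate the kinases Cdk4 and Cdk6. These phosphorylate the retinoblastoma protein and so release E2F factors that drive S phase. INK4 inhibitors bind Cdk4 and Cdk6 and keep D cyclins off them, whereas Cip/Kip inhibitors bind cyclin and kinase complexes, chiefly those of Cdk2. The p53 protein, encoded by Trp53, turns on Cdkn1a after DNA damage and also turns on Mdm2, the ubiquitin ligase that degrades p53. In the intestine Ccnd1 is often listed as a target of Wnt/β-catenin signaling, and crypt proliferation depends on that pathway.

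None of the 10 genes differed between Villin-Wls cKO and control tumors by limma with Benjamini-Hochberg adjustment over all genes tested, at an adjusted p under 0.05. By the same fit 1822 genes, or 10.9% of those tested, passed, of which 1026 (6.12%) were higher and 796 (4.75%) lower in Villin-Wls cKO tumors. The split of calls depended on scaling, with 1385 higher and 412 lower at equal FPKM totals and 893 higher and 1125 lower after quantile normalization. At an unadjusted p under 0.05, 1 of the 10 genes passed (Cdkn1c), beside 25.7% of all genes tested. In 0 of the 10 did the groups fail to overlap, beside 10.1% of all genes tested. The point estimates were higher for 5 genes and lower for 5, and their median was 0.012 on the log2(FPKM + 1) scale, beside 0.0073 over all genes. The median absolute change was 0.15 beside 0.16, and the median SE 0.14 beside 0.13. For 8 of the 10 genes the 95% interval of the change lay within 2-fold in either direction, the exceptions being Cdkn1c and Cdkn2a. In whole tumors, fewer cells of a type and less RNA per cell cannot be told apart.

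**Figure D1:**
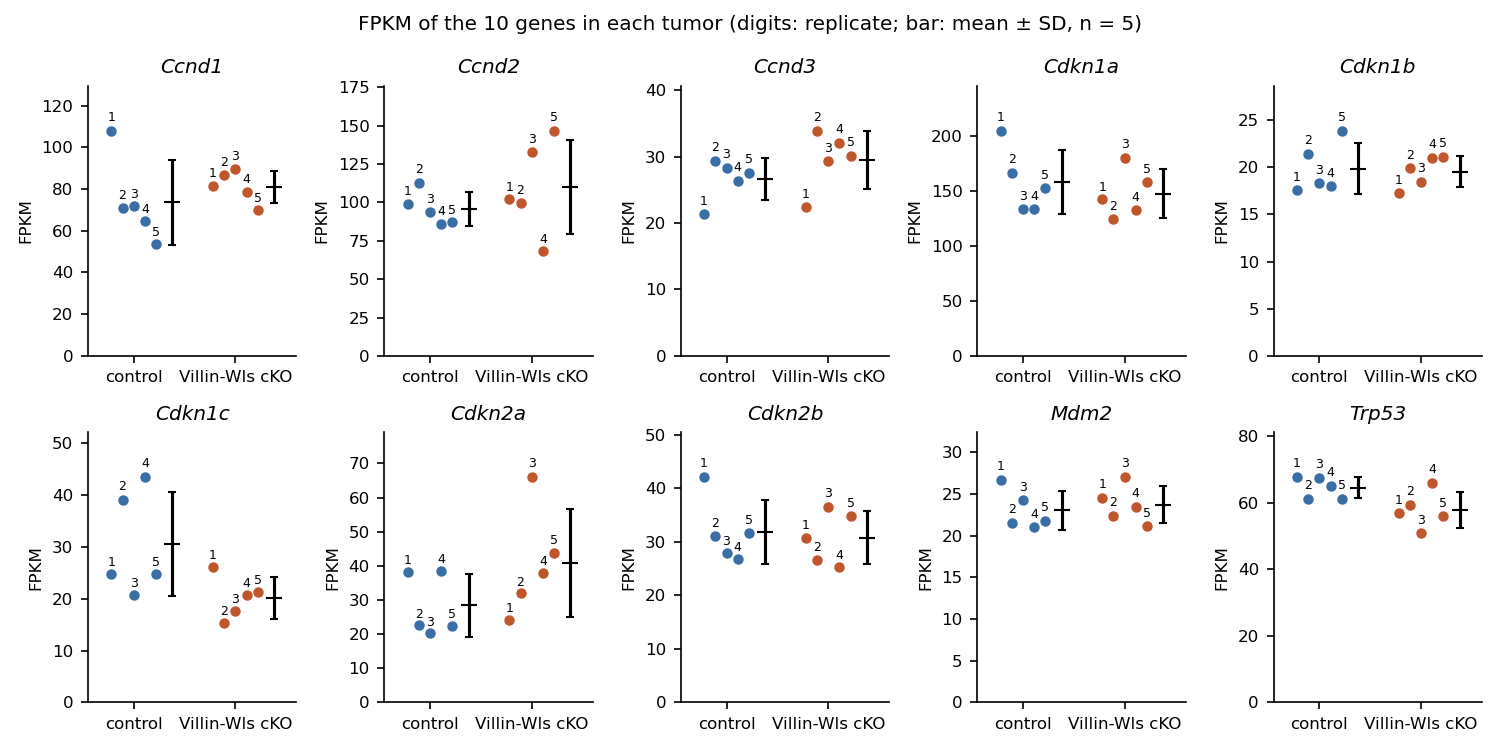
FPKM of each of the 10 genes (vertical axes, starting at 0) in the 5 control and 5 Villin-Wls cKO tumors, with replicate numbers at the points and the mean ± SD as a bar. The groups overlap for every gene, and the separation is widest for Cdkn1c, Cdkn2a and Trp53.

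The levels, which FPKM makes comparable between genes per length, ran from Cdkn1a at the top to Cdkn1b at the bottom in both groups. Cdkn1a had the highest FPKM of the 10 genes in 10 of 10 tumors. In control tumors it was followed by Ccnd2, Ccnd1, Trp53, Cdkn2b, Cdkn1c, Cdkn2a, Ccnd3, Mdm2 and Cdkn1b. Among neighbours in that order, Cdkn1a and Ccnd2, and Trp53 and Cdkn2b, had ranges that did not overlap, and all other neighbours overlapped. In Villin-Wls cKO tumors Cdkn2a moved above Cdkn2b, and Cdkn1c stood below Mdm2. There the ranges of Ccnd1 and Trp53 did not overlap, whereas those of all other neighbours did. These are rank orders of means, and no test was run on them.

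The D cyclins were held by all 3 family members. Ccnd1 lies at chr7:144929931-144939925 on the minus strand (GRCm38, as all positions here). Its FPKM was 108, 71.0, 71.7, 64.6 and 53.5 in control tumors 1 to 5 and 81.2, 86.5, 89.4, 78.6 and 69.8 in Villin-Wls cKO tumors 1 to 5. Control tumor 1 was the highest of all 10 tumors, and the Villin-Wls cKO values lay within the range of the controls. The means were 73.7 ± 20.4 and 81.1 ± 7.62 FPKM (SD, n = 5 each), and the change of 0.17 (SE 0.16) on the log2(FPKM + 1) scale had a limma adjusted p of 0.557. Its 95% interval ran from 0.882-fold to 1.44-fold. The change was 0.32 without control tumor 1 and 0.066 without control tumor 5 (limma adjusted p 0.102 and 0.848).

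Ccnd2 (chr6:127125162-127152193, minus strand) was the most abundant D cyclin in 8 of 10 tumors. It was at 99.1, 113, 93.7, 86.1 and 87.1 FPKM in control tumors 1 to 5 and at 102, 99.6, 133, 68.4 and 147 FPKM in Villin-Wls cKO tumors 1 to 5. Both the lowest and the highest value of all 10 tumors came from the Villin-Wls cKO group, in tumors 4 and 5. The coefficient of variation was 11.4% in control and 27.9% in Villin-Wls cKO tumors, while for Ccnd1 it was 27.7% and 9.39%. The change in Ccnd2 was 0.15 (SE 0.18, limma adjusted p = 0.653), and without 1 of Villin-Wls cKO tumors 3, 4 and 5 it was 0.075, 0.31 and 0.039.

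Ccnd3 (chr17:47505051-47599691, plus strand) was the least abundant of the D cyclins, at 21.4 to 29.4 FPKM in control and 22.4 to 33.9 FPKM in Villin-Wls cKO tumors. It overlaps Bysl on the opposite strand, and Ccnd1, Ccnd2, Cdkn1a and Cdkn1c also overlap annotated genes on the other strand. The authors' methods name default settings of TopHat and Cufflinks, which do not use strand, so reads of such pairs cannot be told apart by strand. In 3 of 5 Villin-Wls cKO tumors Ccnd3 was above all controls, and the change of 0.14 (SE 0.12) had a limma adjusted p of 0.516. It was 0.066 without control tumor 1, 0.23 without Villin-Wls cKO tumor 1 and 0.089 without Villin-Wls cKO tumor 2.

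Summed over the 3 genes, D cyclin FPKM was 196.1 ± 24.9 in control and 220.4 ± 29.8 in Villin-Wls cKO tumors (SD, n = 5 each). The log2 difference of 0.17 had a two-sided exact permutation p of 0.206, where 5 against 5 tumors allow no p below 0.00794. After scaling all tumors to equal FPKM totals, the difference was 0.27 with an exact permutation p of 0.0397, so this call depended on the scaling. It was the only 1 of 16 alternatives with p under 0.05. The make-up of the pool was close to equal in the means. Ccnd1 held 37.2 ± 6.02% of the summed FPKM in control and 37.3 ± 5.83% in Villin-Wls cKO tumors (difference 0.17 percentage points, exact permutation p = 0.992). Ccnd2 held 49.0 ± 3.70% and 49.1 ± 7.97% (difference 0.030 percentage points, exact permutation p = 0.992). Single tumors varied more than the groups, with Ccnd2 at 43.4 to 52.9% in control and 38.2 to 59.5% in Villin-Wls cKO tumors.

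**Figure D2:**
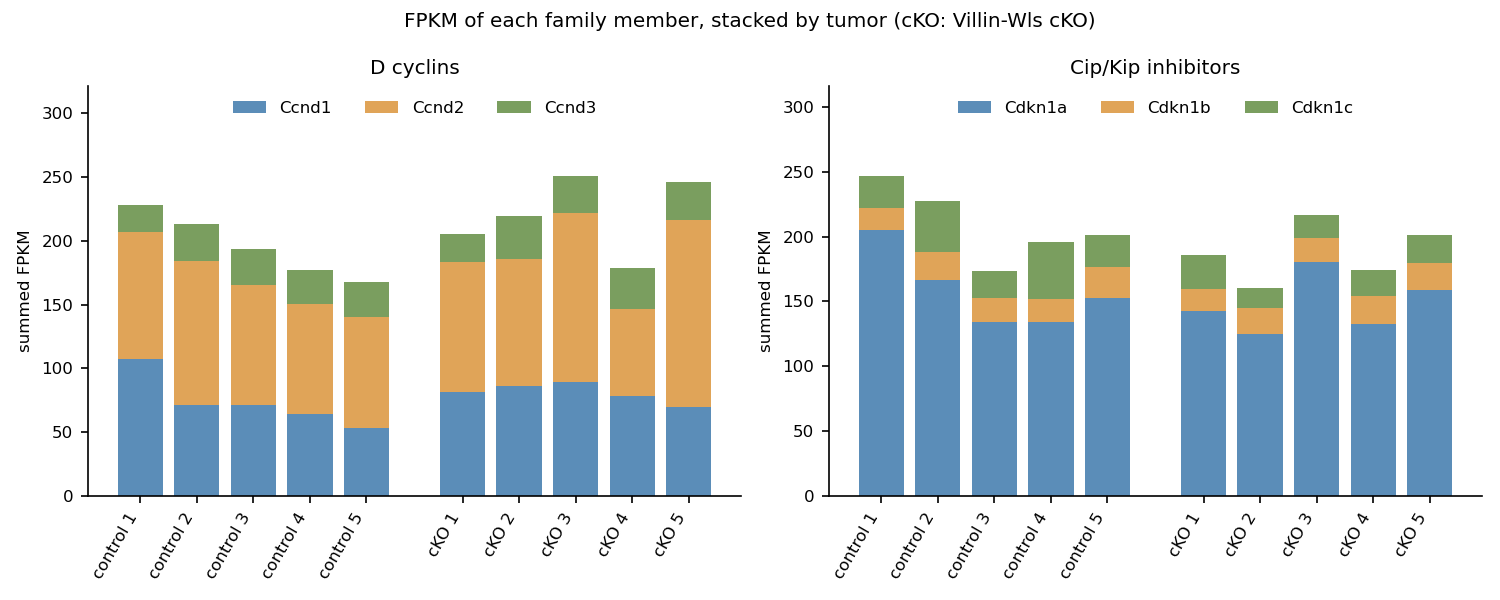
Stacked bars of FPKM in each tumor for the D cyclins (left) and the Cip/Kip inhibitors (right), with axes from 0. Ccnd1 and Ccnd2 make up most of the D cyclin pool and Cdkn1a most of the Cip/Kip pool in every tumor.

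Cdkn1a, which encodes p21, lies at chr17:29090976-29100727 on the plus strand. Its level ranked at the 94.7th percentile of tested genes. It was at 205, 167, 134, 134 and 153 FPKM in control tumors 1 to 5 and at 143, 125, 180, 133 and 159 FPKM in Villin-Wls cKO tumors 1 to 5. Control tumor 1 was the highest and the rest of the groups were interleaved. The means were 158.5 ± 29.3 and 147.8 ± 22.2 FPKM, with a log2 change of -0.094 (SE 0.14, limma adjusted p = 0.724) and a 95% interval from 0.761-fold to 1.15-fold.

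Cdkn1a and Mdm2 are the textbook p53 targets among the 10 genes, and their promoters are shown because they hold matches to the p53 half-site. The sequences are the 250 bases before a RefSeq transcript start (GRCm38.p6), read 5′ to 3′ on the gene's strand, with exact matches to the p53 half-site consensus in capitals. The upstream of the 2 Cdkn1a starts lies at chr17:29090729-29090978 on the plus strand and the Mdm2 start at chr10:117710759-117711008 on the minus strand.
Cdkn1a upstream promoter: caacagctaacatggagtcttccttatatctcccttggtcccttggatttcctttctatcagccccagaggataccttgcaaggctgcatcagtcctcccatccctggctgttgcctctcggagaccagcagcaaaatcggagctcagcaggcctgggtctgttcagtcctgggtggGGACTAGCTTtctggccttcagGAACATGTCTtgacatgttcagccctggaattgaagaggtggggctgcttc
Mdm2 promoter: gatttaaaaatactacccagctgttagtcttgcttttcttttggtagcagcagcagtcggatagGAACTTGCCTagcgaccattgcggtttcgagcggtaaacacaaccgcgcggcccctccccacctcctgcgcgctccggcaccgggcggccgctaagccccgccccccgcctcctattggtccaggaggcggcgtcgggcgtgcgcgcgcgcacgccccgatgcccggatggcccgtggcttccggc
The upstream Cdkn1a promoter held 2 half-site matches and the Mdm2 promoter 1, while the downstream Cdkn1a promoter (chr17:29093519-29093768) held 0. Of the 10 RefSeq promoters found for 7 of the genes, 3 held at least 1 match, the other one being that of Trp53, beside 7.13% of all 32851 mouse promoters of the same length. The GC box GGGCGG, searched on both strands, was in 6 of 10 (32.7% of all promoters), and the TCF motif CTTTGAT, also on both strands, was in 0 of 10 (3.21% of all promoters). Ccnd1, Ccnd2 and Cdkn1c had no entry. A match is a description of letters, and no binding was measured in these tumors.

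Cdkn1b, which encodes p27 (chr6:134920401-134925513, plus strand), was among the steadiest of the 10 genes. It was at 17.5 to 23.8 FPKM in control and 17.3 to 21.1 FPKM in Villin-Wls cKO tumors, with a change of -0.014 (SE 0.098, limma adjusted p = 0.951). The 95% interval was 0.852-fold to 1.15-fold. Its point estimate changed sign under several alternatives, always within 0.084 of 0.

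Cdkn1c, the imprinted Cip/Kip gene that encodes p57 (chr7:143458339-143461050, minus strand), had the largest change of the 10 genes. It was at 24.7, 39.1, 20.8, 43.4 and 24.8 FPKM in control tumors 1 to 5 and at 26.1, 15.4, 17.7, 20.7 and 21.3 FPKM in Villin-Wls cKO tumors 1 to 5. Control tumors 2 and 4 were well above all others, 3 of 5 Villin-Wls cKO tumors were below all controls, and Villin-Wls cKO tumor 1 was above the control median. The means were 30.6 ± 10.04 and 20.2 ± 4.05 FPKM, a log2 change of -0.54 (SE 0.21) with a 95% interval from 0.498-fold to 0.955-fold. The unadjusted limma p was 0.0290, the limma adjusted p 0.140 and the two-sided exact permutation p 0.0714, so the difference did not pass. The squamous-marked Villin-Wls cKO tumors 2 and 3 were the lowest of the 10, with a mean of 16.5 FPKM against 22.7 FPKM in Villin-Wls cKO tumors 1, 4 and 5.

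Within the Cip/Kip pool Cdkn1a held 75.6 ± 5.27% of the summed FPKM in control and 78.6 ± 2.86% in Villin-Wls cKO tumors (difference 2.97 percentage points, exact permutation p = 0.302). Without control tumor 1, in which Cdkn1a held 82.9% of the pool, the difference was 4.78 percentage points with an exact permutation p of 0.0476. This was the only 1 of 13 alternatives with p under 0.05, and the exact p reached 0.643. Cdkn1c held 14.7% of the pool in control and 10.9% in Villin-Wls cKO tumors, and Cdkn1b 9.63% and 10.6%. The plot of stacked FPKM shows this as a thin top band for Cdkn1c that was widest in control tumors 2 and 4.

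Cdkn2a and Cdkn2b lie 11645 bases apart on the minus strand of chromosome 4, at chr4:89274471-89294653 and chr4:89306299-89311039. Cdkn2a has 2 annotated coding transcripts with separate starts. One encodes the INK4 protein p16 and the other p19ARF, which inhibits Mdm2, and a single FPKM value per gene does not separate them. The starts differ in base composition, and both 250-base stretches are printed for that reason, from RefSeq GRCm38.p6 on the minus strand, with GC boxes in capitals.
Cdkn2a promoter at chr4:89282193-89282442: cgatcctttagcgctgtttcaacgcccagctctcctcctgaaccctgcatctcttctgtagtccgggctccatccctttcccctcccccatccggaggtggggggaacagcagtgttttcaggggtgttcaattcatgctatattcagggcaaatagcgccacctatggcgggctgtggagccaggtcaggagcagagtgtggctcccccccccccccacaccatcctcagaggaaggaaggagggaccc
Cdkn2a promoter at chr4:89294620-89294869: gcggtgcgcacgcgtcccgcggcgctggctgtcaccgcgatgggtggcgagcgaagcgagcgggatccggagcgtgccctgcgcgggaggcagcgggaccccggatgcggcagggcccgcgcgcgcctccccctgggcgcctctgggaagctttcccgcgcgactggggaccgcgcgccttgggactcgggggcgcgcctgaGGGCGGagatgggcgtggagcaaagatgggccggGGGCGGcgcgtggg
The first holds 60% G and C, 7 CpG and 0 GC boxes. The second, at the outer start, holds 78.4% G and C, 40 CpG and 2 GC boxes, where the medians over all promoters were 52.4% and 6 CpG.

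Cdkn2a was the most variable of the 10 genes, with a within-group SD of 0.48 on the log2(FPKM + 1) scale (87.4th percentile of tested genes). It was at 38.2, 22.6, 20.2, 38.5 and 22.5 FPKM in control tumors 1 to 5 and at 24.3, 31.9, 65.9, 38.0 and 43.8 FPKM in Villin-Wls cKO tumors 1 to 5. Control tumors 1 and 4 stood above the other 3 controls, all 5 Villin-Wls cKO tumors were above the control median, and 2 of 5 were above all controls. The means were 28.4 ± 9.13 and 40.8 ± 15.8 FPKM, with a change of 0.48 (SE 0.27, limma adjusted p = 0.297, exact permutation p = 0.159). The 95% interval, from 0.921-fold to 2.12-fold, was the widest of the 10. The highest value was that of Villin-Wls cKO tumor 3, and tumors 2 and 3 averaged 48.9 FPKM against 35.3 FPKM in tumors 1, 4 and 5. Without tumor 3 the change was 0.29, and without both it was 0.32 (limma adjusted p 0.525 and 0.541).

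Cdkn2b, which encodes the INK4 protein p15, had a point estimate near 0. It was at 26.7 to 42.0 FPKM in control and 25.3 to 36.6 FPKM in Villin-Wls cKO tumors, with a change of -0.044 (SE 0.14, limma adjusted p = 0.884). Cdkn2a was above Cdkn2b in 1 of 5 control tumors and in 4 of 5 Villin-Wls cKO tumors, and the Cdkn2a to Cdkn2b ratio was 0.903 ± 0.311 and 1.31 ± 0.376. The ratios are given as a description, without a test.

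Trp53 (chr11:69580359-69591873, plus strand) had the smallest spread of the 10 genes, with a within-group SD of 0.11 on the log2(FPKM + 1) scale. It was at 67.6, 61.2, 67.5, 65.2 and 61.3 FPKM in control tumors 1 to 5 and at 56.9, 59.4, 50.9, 66.0 and 56.1 FPKM in Villin-Wls cKO tumors 1 to 5. In 4 of 5 Villin-Wls cKO tumors the value was below all controls, and tumor 4 lay within their range. The means were 64.6 ± 3.20 and 57.9 ± 5.49 FPKM, with a change of -0.16 (SE 0.073) and a 95% interval from 0.800-fold to 1.002-fold. Before any adjustment the exact permutation p was 0.0476 and the limma p 0.0534, and the limma adjusted p over all genes was 0.203. At equal FPKM totals the change was -0.055 (limma adjusted p = 0.762).

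Mdm2 (chr10:117688875-117710758, minus strand) was at 21.0 to 26.7 FPKM in control and 21.2 to 26.996 FPKM in Villin-Wls cKO tumors. The change was 0.039 (SE 0.088, limma adjusted p = 0.831), with a 95% interval from 0.898-fold to 1.18-fold, and at equal FPKM totals it was 0.14 (limma adjusted p = 0.313). The log2 ratio of Mdm2 to Trp53, which does not depend on scaling between tumors, was -1.49 ± 0.10 in control and -1.29 ± 0.23 in Villin-Wls cKO tumors. The difference of 0.20 had an exact permutation p of 0.0952, and without Villin-Wls cKO tumor 4 it was 0.25 with an exact permutation p of 0.0317. This was the only 1 of 13 alternatives with p under 0.05, and the exact p reached 0.381. The ratio was highest in Villin-Wls cKO tumor 3, which had both the highest Mdm2 and the lowest Trp53 of the 10 tumors.

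**Figure D3:**
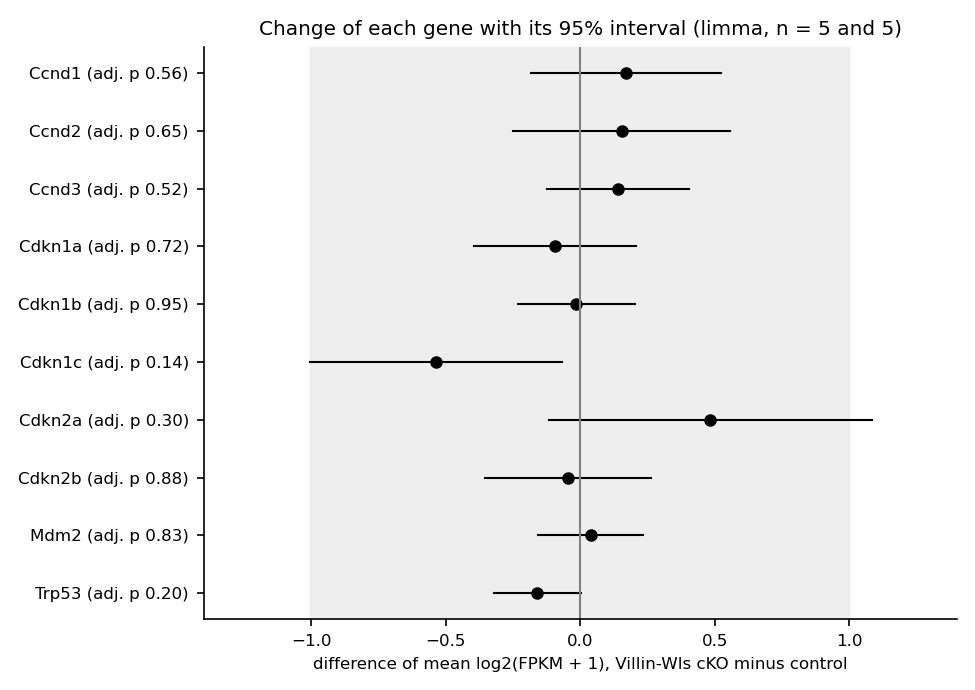
Difference of mean log2(FPKM + 1), Villin-Wls cKO minus control, for each gene, with its 95% interval from limma (n = 5 and 5) and its adjusted p. The shaded band is 2-fold in either direction, the interval of Cdkn1c excludes 0 without passing adjustment, and Cdkn2a and Cdkn1c are the genes whose intervals leave the band.

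The wider pathways of these genes were described by counts past the same test, read against 10.9% of all genes, and against 25.7% for counts at an unadjusted p under 0.05. Of 36 other p53 targets, 3 rose and 0 fell, and the median change was 0.055. Psrc1, a microtubule-associated protein, rose from 11.3 ± 1.84 to 26.3 ± 10.4 FPKM (log2 change 1.08, SE 0.24, limma adjusted p = 0.0175). Fas, the death receptor, rose from 4.07 ± 1.06 to 7.92 ± 0.798 FPKM (0.84, SE 0.14, limma adjusted p = 0.00521). Sfn, the epithelial 14-3-3 sigma protein, rose from 86.6 ± 25.2 to 158 ± 41.8 FPKM (0.87, SE 0.22, limma adjusted p = 0.0313). Without Villin-Wls cKO tumors 2 and 3, which had the highest Sfn, its change was 0.61 (limma adjusted p = 0.143), and it also missed the threshold without control tumor 1, 4 or 5 or Villin-Wls cKO tumor 2 or 3 alone (limma adjusted p 0.0629 to 0.0729). Each of these 3 genes, named for passing the test, was above all controls in every Villin-Wls cKO tumor. Groups did not overlap in 10.1% of all genes tested. In the same list Xpc, at 11.4 and 8.72 FPKM, was below all controls in every Villin-Wls cKO tumor (-0.35, limma adjusted p = 0.0508).

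Of 16 tested members of the p53 family, its regulators and damage kinases, 0 passed by limma, with 1 at an unadjusted p under 0.05 (Ppm1d), beside 25.7% of all genes. Ppm1d, a phosphatase that damps p53, was at 7.36 ± 0.969 FPKM in control and 5.65 ± 0.189 FPKM in Villin-Wls cKO tumors, and although the groups did not overlap the limma adjusted p was 0.0508. It passed in 5 of 23 alternative fits and missed the threshold in the others. Without control tumor 3 the limma adjusted p was 0.0378. It was 0.0410 to 0.0484 with a pseudocount of 0.1, quantile normalization, no trend or tumor quality weights. At equal FPKM totals the change was -0.22 (limma adjusted p = 0.180), and with the replicate block the limma adjusted p was 0.0873. Trp63, the p53 relative of squamous epithelium, was at most 0.0361 FPKM in controls and reached 17.0 FPKM in the Krt5-high Villin-Wls cKO tumors (1.66, SE 0.88, limma adjusted p = 0.273).

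Among 17 CDK partners, pocket proteins and other INK4 inhibitors, 1 rose and 1 fell, with a median change of -0.11. E2f2, a transcription factor of S phase, rose from 4.68 to 7.74 FPKM (0.61, SE 0.17, limma adjusted p = 0.0418). Rbl2, a pocket protein that represses E2F targets, fell from 13.3 to 10.2 FPKM (-0.35, SE 0.082, limma adjusted p = 0.0227). The E2f2 call was lost without control tumor 1, 2, 4 or 5 or Villin-Wls cKO tumor 3, 4 or 5 (limma adjusted p 0.0661 to 0.0959), and that of Rbl2 without control tumor 2 or 5 (0.0559 and 0.0592). Without Villin-Wls cKO tumors 2 and 3 the limma adjusted p was 0.0879 for E2f2 and 0.0807 for Rbl2.

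Of 10 tested parts of the ubiquitin ligases that act on p27 or D cyclins, 2 fell and 0 rose. Skp1a, the adaptor of SCF ligases, fell from 445 to 318 FPKM (-0.48, SE 0.13, limma adjusted p = 0.0388). Cul4a, a cullin scaffold, fell from 38.1 to 32.7 FPKM (-0.22, SE 0.052, limma adjusted p = 0.0248). The Skp1a call was lost without any 1 of control tumors 1, 2, 4 and 5 or Villin-Wls cKO tumors 2 to 5 (limma adjusted p 0.0693 to 0.0907), and the Cul4a call without control tumor 2 or 5 or Villin-Wls cKO tumor 2 or 5 (0.0548 to 0.0640). With both Villin-Wls cKO tumors 2 and 3 left out it was 0.174 for Skp1a and 0.0729 for Cul4a.

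Of 14 Polycomb and H3K27 enzymes, which control the Cdkn2a locus, 1 rose and 2 fell, with a median change of -0.16. Cbx2, a Polycomb reader, fell from 11.2 to 7.19 FPKM (-0.58, SE 0.12, limma adjusted p = 0.0123). Ezh2, the H3K27 methyltransferase, fell from 39.3 to 28.6 FPKM (-0.45, SE 0.12, limma adjusted p = 0.0441). That call was lost without control tumor 1, 3 or 4 or any 1 of Villin-Wls cKO tumors 2 to 5 (limma adjusted p 0.0707 to 0.0964), and without both Villin-Wls cKO tumors 2 and 3 (0.154). Kdm6a, an X-linked H3K27 demethylase, rose from 9.73 to 14.2 FPKM (0.50, SE 0.073, limma adjusted p = 0.00202), in groups that differed in Xist as given above. After scaling all tumors to equal FPKM totals, Rbl2, Skp1a, Cul4a, Cbx2 and Ezh2 did not pass (limma adjusted p 0.0669 to 0.411).

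Of 15 genes listed around Cdkn1c, 12 were tested, and of these 2 rose and 0 fell. Kcnq1ot1 was on the list but absent from the expression values. Tspan32 rose from 4.56 ± 2.79 to 23.6 ± 11.8 FPKM (2.11, SE 0.45, limma adjusted p = 0.0141). H19, a non-coding RNA listed with the same values as the microRNA gene Mir675 it hosts, rose from 1.46 ± 0.632 to 42.9 ± 41.5 FPKM (3.55, SE 0.68, limma adjusted p = 0.00885), with Villin-Wls cKO tumors at 3.63 to 111 FPKM. Over the 12 tested genes, 6 point estimates were above 0 and 6 below 0, with a median change of 0.054. The point estimate of Cdkn1c itself had the sign opposite to that of Tspan32 and H19. H19 lies at chr7:142575529-142578143, away from Cdkn1c, and shared control of these genes was not tested.

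Of 19 proliferation genes, 0 passed by limma, with 1 at an unadjusted p under 0.05 (Ccnb2), beside 25.7% of all genes, and the median change was 0.032. Ccnb2, a mitotic cyclin, was at 40.9 and 49.7 FPKM (0.28, SE 0.12, limma adjusted p = 0.167), and Mcm2, a subunit of the replicative helicase, at 30.03 and 25.47 FPKM (-0.22, SE 0.12, limma adjusted p = 0.274). The 12 Wnt target genes served as a comparison, with 6 lower, 0 higher and a median of -0.70. Axin2, a feedback inhibitor of the pathway, fell from 158 ± 14.9 to 96.5 ± 10.9 FPKM (-0.71, SE 0.095, limma adjusted p = 0.00121). Apcdd1, an inhibitor of Wnt receptors, changed by -1.92, Tcf7, a transcription factor of the pathway, by -1.09 and Notum, an enzyme that inactivates Wnt ligands, by -0.93 on the same scale (limma adjusted p 0.0027, 0.00156 and 0.00109). The other 6 did not pass, and 2 of these had point estimates above 0, Lgr5 at 0.71 and Myc at 0.063 (limma adjusted p 0.239 and 0.773), named here after their values were seen. The difference between Ccnd1 and these genes was not tested. The lists were chosen with earlier results of these data known, and their counts and medians are descriptions.

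**Figure D4:**
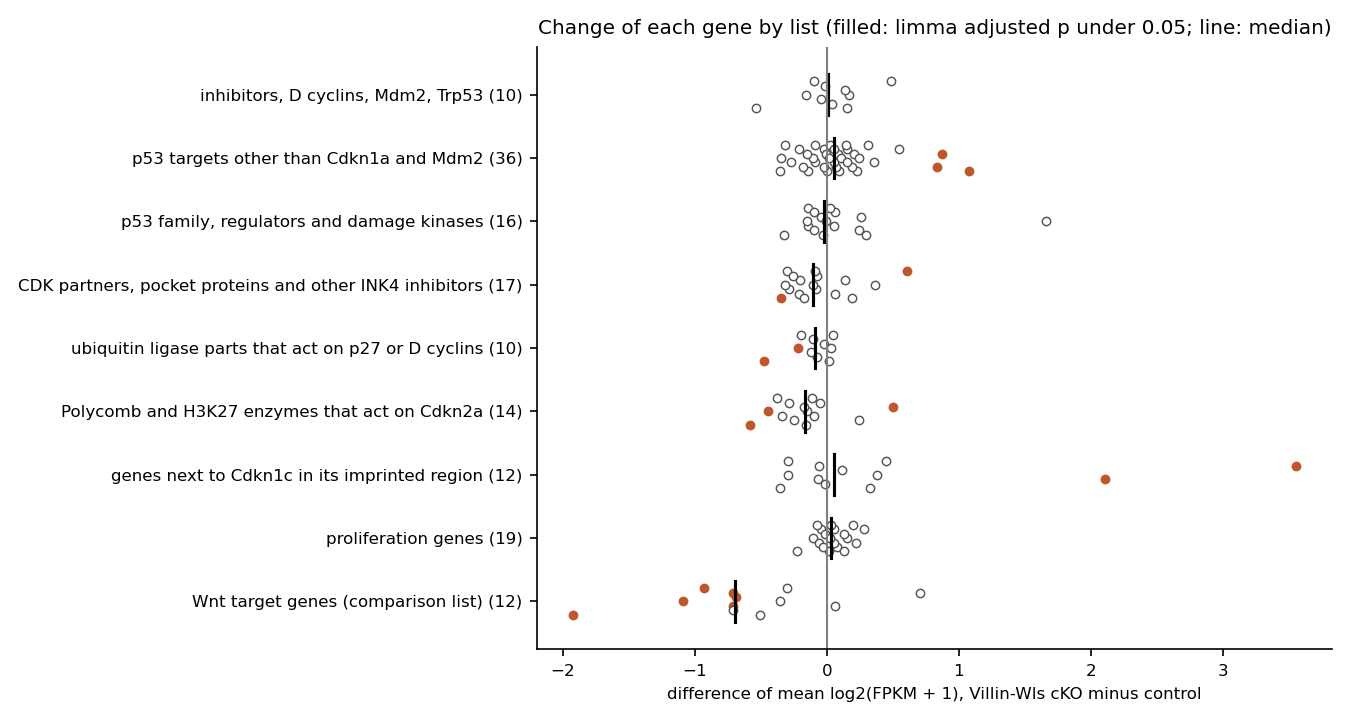
Difference of mean log2(FPKM + 1), Villin-Wls cKO minus control, for every tested gene of each list (number tested in parentheses), with filled points for limma adjusted p under 0.05 and a bar at the list's median. The 10 genes of the top row are all open points between -0.54 and 0.48, and the Wnt target row has its median at -0.70.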

How the data were processed

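Whole-tumor RNA was sequenced from 5 control and 5 Villin-Wls cKO tumors. The authors deposited FPKM values per gene name, with the submitters' processing notes naming TopHat2 2.1.1, Cufflinks 2.2.1 and the genome build GRCm38.p5; the methods name default settings, which do not use strand. The notes also name Cuffdiff, from which the paper took the FPKM of its heatmap, and no scaling setting beyond defaults was stated. FPKM is by definition divided by library size and transcript length, and any further scaling between tumors before deposit was not tested. Median ratio factors of the tumors ran from 0.984 to 1.02. No counts or depths were recoverable. FPKM summed to 1207683 to 1533885 per tumor. Of 16875 names, 2419 share all 10 values with another name.

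Values were used as log2(FPKM + 1) for names with a mean of at least 0.5 FPKM, and tested with limma 3.58.1 (R 4.3.3; lmFit, eBayes with trend, two-sided, Benjamini-Hochberg over all 16757 names), after a check on simulated data. Fold changes on this scale understate those of low genes. Sums, shares and ratios were tested by exact permutation over all arrangements of the tumors, without adjustment across these 5 comparisons. Intervals are 95% intervals of the limma fit.

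The genes and lists were chosen with earlier results of these data known. All 10 genes were described. From each list, up to 4 genes per direction with the largest change past the threshold were named, or the 2 largest where none passed, with Wls, Xist, Eif2s3y, Krt5 and Krt14 as checks. Positions are from GENCODE M21 and promoters from RefSeq. Alternatives covered the pseudocount, filter, scaling, variance model, replicate block, squamous markers and leaving out tumors.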

Additional observations from a re-analysis of the deposited data

How the results depend on the processing

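In 23 alternative fits, 10 of them leaving out 1 tumor, 0 of the 230 values of the 10 genes passed the threshold. The sign of a change turned in 16 of them. Over the 23 fits the change of Cdkn1c ran from -0.66 to -0.36 (limma adjusted p 0.0708 to 0.416). That of Trp53 ran from -0.23 to -0.055 (limma adjusted p 0.0798 to 0.762). After rescaling to equal FPKM sums, Cdkn1a was at 0.011, Cdkn1b at 0.084, Cdkn2b at 0.057, Mdm2 at 0.14, Trp53 at -0.055, Ccnd1 at 0.27, Ccnd2 at 0.26, Ccnd3 at 0.24 and the D cyclin sum at 0.27. This moved the median of all genes to 0.097, and Eef1a1, at 253851 FPKM in control and 159412 FPKM in Villin-Wls cKO tumors, is part of that sum. Quantile normalization put Ccnd1 at 0.095 and Ccnd2 at 0.069. Mdm2 was at -0.00092 after it and at -0.0025 with a squamous covariate, which put Cdkn1b at 0.0092 and put Sfn, E2f2, Skp1a and Ezh2 at adjusted p 0.0550 to 0.0886. Leaving out Villin-Wls cKO tumors 2 and 3 left 1101 genes past the threshold, with Cdkn1b at 0.00071, Mdm2 at 0.0017, Ccnd1 at 0.090, Ccnd2 at 0.079 and Ccnd3 at 0.072. The causes of these shifts were not tested.

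Leaving out 1 tumor gave changes of -0.17 to 0.0023 for Cdkn1a, -0.054 to 0.051 for Cdkn1b, -0.11 to 0.058 for Cdkn2b, -0.0073 to 0.090 for Mdm2, 0.066 to 0.32 for Ccnd1, 0.039 to 0.31 for Ccnd2, 0.066 to 0.23 for Ccnd3 and 0.29 to 0.64 for Cdkn2a. It gave differences in share of -1.47 to 2.69 percentage points for Ccnd1, -2.57 to 2.74 for Ccnd2 and 1.201 to 4.78 for Cdkn1a, and 0.11 to 0.25 for the log2 Mdm2 to Trp53 ratio. Deviations of tumors with the same replicate number had correlations of -0.087 to 0.161. Tumors with different numbers were not compared in this way, so these values cannot decide on pairing. The methods name no pairing, and the numbers were not taken as pairs. A fit with the replicate block left 1627 genes and 0 of the 10 past the threshold, and of the named list genes past the threshold, E2f2, Cul4a and Ezh2 lost their call under it and the others kept it. With n = 5 each and unknown depth, differences inside the intervals given cannot be resolved.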
